A study of Rattus norvegicus with 4 samples.

Results

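The FOS and JUN genes encode the subunits of AP-1, a dimeric transcription factor. The 7 genes followed here were Fos, Fosb, Fosl1 and Fosl2 of the FOS family and Jun, Junb and Jund of the JUN family. They were found by matching the accession of each non-control array probe, without its version, to the RefSeq genes of the rat. All 7 had a probe, and together they had 11 of the 45598 probes, among 16581 genes that could be named in this way.

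All proteins of both families carry a basic leucine zipper, with which they pair and bind DNA. FOS proteins bind as partners of JUN proteins, whereas JUN proteins can also pair with each other. In macrophages AP-1 is known as a target of MAP kinase signalling that acts on inflammatory and tissue-remodelling genes. Fos and Jun are classical immediate early genes, whose mRNA rises and decays quickly after a stimulus, so that the time of sampling matters for their level.

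RNA came from NR8383, an alveolar macrophage line derived from cells washed out of the lung of a normal rat. After 20 passages the cells were kept for 4 h with Printex90, a carbon black made of clustered nanoparticles, at 0.9 cm²/cm². Culture conditions recorded alike for all 4 replicates were 15% serum and a seeding time of 48 h. Total RNA of 4 biological replicates of this 1 exposed group was hybridised, each to its own 1-colour array. The study set exposed cells against cells kept without carbon black. Arrays of the latter were not analysed here. What follows is therefore the level of each transcript after exposure and its spread between replicates, with no measure of a change due to carbon black.

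All 4 arrays lay on 1 slide read in 1 scan. The scanner software marked between 37.5% and 40.9% of the probes as well above background. The 99th percentile of 308 negative control spots was 27.1 intensity units on replicate 1 and between 4.95 and 7.40 on the others. The identity of the cells was checked with marker genes. Of 14 macrophage markers, 12 were detected on every array, among them Cd68 and Spi1, while Adgre1 and Marco were not detected. Of 9 epithelial markers only Ager was detected on all arrays, and of 6 measured lymphocyte markers none on any array. Among granulocyte markers S100a8 was detected on 2 arrays. Among fibroblast and endothelial markers Dcn and Pecam1 were detected on all arrays and Cdh5 on 2.

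Levels are log2 processed intensity minus the 75th percentile of the same array over probes, so that 0 is that percentile and 1 unit is a doubling. A level describes its own probe. Probes bind with different strength, so levels of different genes are not ranked here. In RNA from a whole culture, fewer cells expressing a gene and less RNA per cell cannot be told apart.

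Signal was well above background on every array for 6 of the 7 genes, all 3 JUN genes and all FOS genes but Fosl1. Among all 16581 named genes the share with signal on every array was 47.9%, and 44% had signal on no array. Each of the 10 probes for the 6 genes was detected on all arrays. Fos and Fosb lay near the limit of detection. The call of Fos depended on how its spots were counted: with the mark required on every spot of a probe, 5 of the 7 genes were detected on all arrays.

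**Figure D1:**
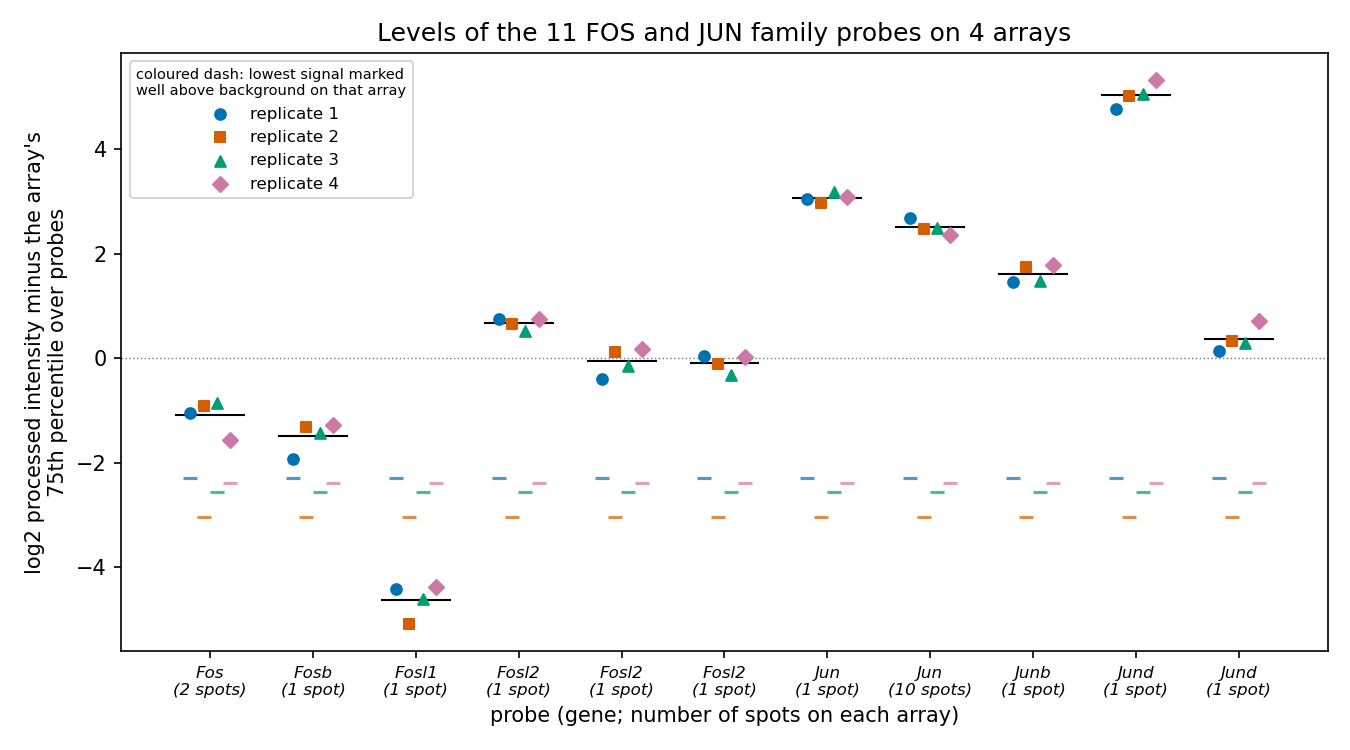
Levels of the 11 probes on each array (log2 processed intensity minus the 75th percentile of the array), with a black line at the mean of 4 arrays and a coloured dash at the lowest signal marked well above background on that array. Fosl1 lies below the dashes on all 4 arrays, and Fos and Fosb lie closest above them.

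Promoter sequence from RefSeq (assembly GRCr8), 250 bases upstream of an annotated start, matched 5 of the 7 members, Fosb, Fosl1, Fosl2, Junb and Jund. The Fosb window (chr1:88089185-88089434, minus strand) lay inside the Fosb gene (chr1:88082324-88089506). It therefore did not cover the bases upstream of that gene. Jund and Junb are shown as members with signal on every array and Fosl1 as the member without it. Capitals mark exact matches on either strand to a cAMP response element (TGACGTCA), an octamer (ATGCAAAT), a CCAAT box, a GC box (GGGCGG) or a TATA box (TATAAA). The Jund window is chr16:18769772-18770021 on the minus strand, the Junb window chr19:40080876-40081125 on the plus strand and the Fosl1 window chr1:212183635-212183884 on the plus strand.
Jund: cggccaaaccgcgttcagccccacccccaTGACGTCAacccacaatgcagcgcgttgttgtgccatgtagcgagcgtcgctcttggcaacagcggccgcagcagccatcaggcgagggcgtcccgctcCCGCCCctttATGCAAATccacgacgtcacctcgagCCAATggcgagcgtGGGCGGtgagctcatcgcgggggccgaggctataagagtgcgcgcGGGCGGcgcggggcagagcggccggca
Junb: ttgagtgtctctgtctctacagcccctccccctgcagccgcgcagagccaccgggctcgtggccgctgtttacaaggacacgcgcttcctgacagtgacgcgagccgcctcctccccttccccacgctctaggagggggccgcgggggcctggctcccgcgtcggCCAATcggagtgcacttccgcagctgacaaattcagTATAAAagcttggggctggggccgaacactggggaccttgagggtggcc
Fosl1: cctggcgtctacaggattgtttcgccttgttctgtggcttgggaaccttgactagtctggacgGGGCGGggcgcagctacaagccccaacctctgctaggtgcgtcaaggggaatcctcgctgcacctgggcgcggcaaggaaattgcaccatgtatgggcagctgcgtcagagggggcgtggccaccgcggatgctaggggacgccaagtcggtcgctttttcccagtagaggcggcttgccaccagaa
The Jund window held the cAMP response element, beginning 221 bases before the start, which 1.59% of 33469 promoters held. It also held the octamer at 112 bases, found in 1.56% of promoters, a CCAAT box at 86 bases and 3 GC boxes. The core of the element (GACGTC), which 3.85% of promoters held, occurred inside the full element and again at 100 bases, where it is left in lower case. The Junb window held a CCAAT box at 85 bases and a TATA box at 49 bases before the start, which 34% and 12.9% of promoters held. The only match in the Fosl1 window was a GC box at 187 bases, found in 30.5% of promoters. The window of Fosl2, a member with signal on every array, is not shown. It also held a GC box as its only match, at 245 bases. None of the 5 windows held the AP-1 site TGACTCA, present in 4.05% of promoters. None held a CArG box, the site of serum response factor, present in 1.5%. For Fosb, whose window lay inside the gene, this does not describe the bases upstream of the gene. These matches describe letters in a window. The printed windows were picked by their detection on the arrays, and a link between matches and detection or level was not tested.

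Fos (NM_022197), the founding member of its family and an early response gene, had levels of -1.05, -0.91, -0.86 and -1.57 on replicates 1, 2, 3 and 4. Replicate 4 was the low array. With background corrected by normexp this was lost, and the deviations from the mean were -0.093, 0.033, 0.11 and -0.055 log2 units, with replicate 1 lowest. That setting also adds an offset of 50 units, beside Fos signals of 21.5 to 52.8 units in the main setting. Such an offset narrows log2 differences of dim signals by construction. The mean was -1.09 ± 0.32 (SD, n = 4), and without replicate 4 the SD was 0.097.

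The Fos probe had 2 spots on each array, which disagreed on replicates 1 and 4. On replicate 1 they read 35.2 and 79.2 intensity units, 1.17 log2 units apart. On replicate 4 they read 16.8 and 27.5, 0.71 log2 units apart, and the dimmer one was not marked well above background. On replicates 2 and 3 they were 0.18 log2 units apart. The second spot was the brighter on all 4 arrays. Differences were also taken for 44 detected probes with 2 spots and a mean level within 1 log2 unit of Fos, the Fos probe included. The difference was smaller than that of Fos for 90.9% on replicates 1 and 4. On replicates 2 and 3 it was smaller for 47.73% and 54.55%.

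On replicate 1 the local background beside the brighter Fos spot was 47 units, higher than at 99.1% of the non-control spots of that array, against 26 beside the dimmer one. On replicates 2, 3 and 4 the local background at the second spot was 29, 31 and 30 units, and at the first 25, 25 and 24. The part of this background in the level of Fos was not tested. Taken alone, the first spot had levels of -1.63, -0.997, -0.95 and -1.92 on replicates 1 to 4 and the second -0.46, -0.82, -0.77 and -1.21. Both were lowest on replicate 4, and they placed replicate 1 differently, second lowest at the first spot and highest at the second.

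**Figure D2:**
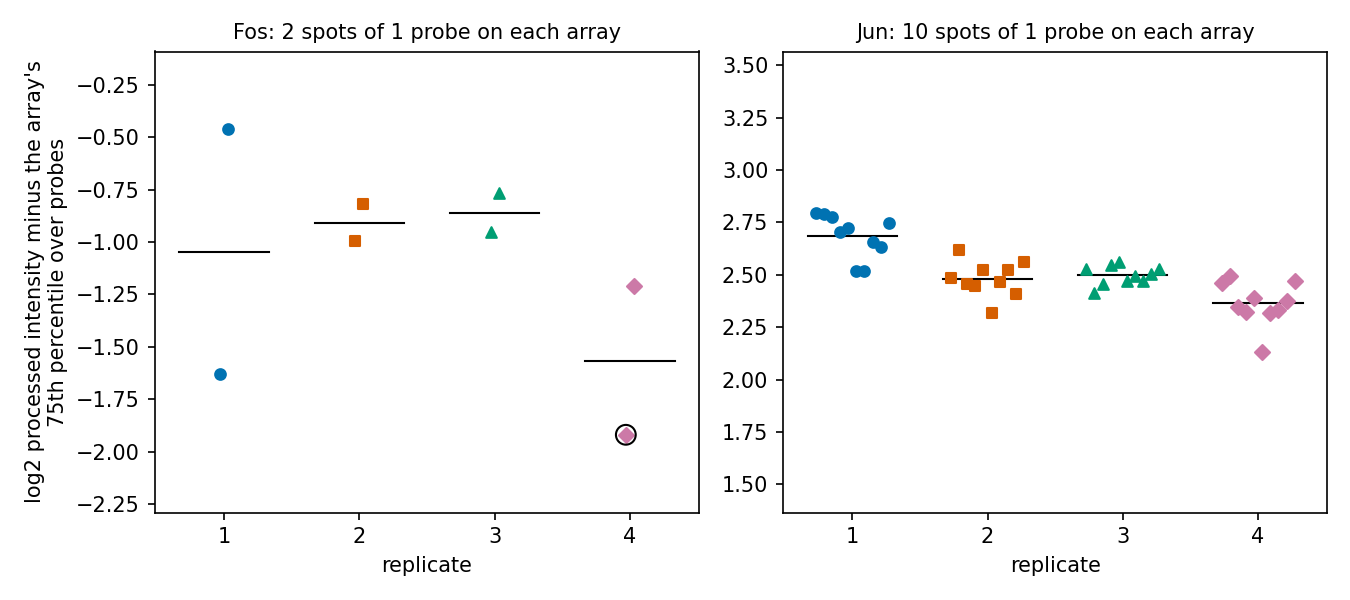
Levels of the single spots of the Fos probe (left) and of the Jun probe with 10 spots (right) on each array, with a black line at the array mean and a ring around the spot not marked well above background. Both panels span the same number of log2 units. The Fos spots are 1.17 log2 units apart on replicate 1, and the Jun spots lie within 0.36 on every array.

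Fosb (NM_001256509), the family member known for its induction by repeated stimulation of neurons, had levels of -1.93, -1.31, -1.43 and -1.28 on replicates 1 to 4. Replicate 1 was the low array. There the Fosb signal of 28.7 units was 1.28 times the lowest signal marked well above background, and on the others 2.17 to 3.34 times. The mean was -1.49 ± 0.30 (SD, n = 4), and without replicate 1 the SD was 0.080.

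Fosl1 (NM_012953), which encodes FRA1, a FOS protein without the transactivation domain of FOS, was not well above background on any array. Its processed intensities of 5.08, 2.75, 2.62 and 3.08 on replicates 1 to 4 each carried a software error of 100.3% of the signal. The lowest signals marked well above background were 22.3, 11.3, 10.8 and 12.1 units on the same arrays. The processed Fosl1 values came to 22.8% to 25.5% of that limit, but the software marked none of them as positive and significant. On replicates 2 and 3 the spot median, 24.5 and 23.5 units, lay below the local background of 28 and 27. These values are therefore not read as a measured amount of Fosl1. The limit bounds its probe's signal and does not show that the transcript was absent.

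Fosl2 (NM_012954), which encodes FRA2, the close relative of FRA1, was measured by 3 probes. The brightest had levels of 0.75, 0.66, 0.51 and 0.75 on replicates 1 to 4, a mean of 0.67 ± 0.11 (SD, n = 4) with replicate 3 lowest. Another had levels of -0.40, 0.12, -0.15 and 0.17, and the dimmest 0.04, -0.11, -0.32 and 0.01. The brightest and the dimmest probe kept a nearly constant difference of 0.76 ± 0.053 log2 units (SD, n = 4). The remaining probe parted from the brightest on replicate 1, by 1.15 log2 units, against 0.53 to 0.66 on the other arrays. On replicate 1 the local background was 28 units at that probe, 35 at the brightest and 40 at the dimmest. The part of background in this disagreement was not tested.

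Jun (NM_021835), whose protein is the principal partner of FOS, had levels of 3.06, 2.97, 3.18 and 3.09 on replicates 1 to 4 at its brightest probe. The arrays lay within 0.21 log2 units, with a mean of 3.07 ± 0.088 (SD, n = 4). This SD was smaller than that of the other 5 detected genes, an order that depended on the setting. With normexp and its offset the SD was 0.093 for Fos and 0.10 for Jun. A second Jun probe with 10 spots had levels of 2.69, 2.48, 2.50 and 2.37. It was highest on replicate 1 and lowest on replicate 4, whereas the first probe was highest on replicate 3 and lowest on replicate 2. The difference between the probes was 0.37, 0.49, 0.69 and 0.72 log2 units on replicates 1 to 4.

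The 10 spots of the second Jun probe ranged from 624 to 758 units on replicate 1 and from 280 to 359 units on replicate 4. The pooled SD between spots within an array was 0.087 log2 units, from which a mean over 10 spots has an expected SD of 0.028. The SD between array means was 0.13. The brightest probe for the same transcript did not follow the same order of arrays.

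Junb (NM_021836), an early response gene whose protein can oppose JUN, had levels of 1.46, 1.74, 1.48 and 1.78 on replicates 1 to 4. Replicates 1 and 3 were low and replicates 2 and 4 high, with 0.32 log2 units between the lowest and the highest. The mean was 1.62 ± 0.17 (SD, n = 4).

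Jund, the JUN gene known for steady expression in many tissues, had a probe for NM_001286966 with levels of 4.78, 5.02, 5.06 and 5.32 on replicates 1 to 4, and a probe for NM_138875 with levels of 0.13, 0.33, 0.29 and 0.72. Replicate 1 was lowest and replicate 4 highest at both probes. The mean of the first was 5.04 ± 0.22 and that of the second 0.37 ± 0.25 (SD, n = 4). Although the probes differed 25.6-fold in signal, the log2 difference between them was 4.68 ± 0.068 (SD, n = 4), less variable than either. The lowest array on the brighter probe was replicate 1 and the highest replicate 4 under each of the 5 other scalings or background corrections tried. With background corrected by normexp, the values deviated by -0.20, 0.11, -0.084 and 0.18 log2 units from their mean on replicates 1 to 4.

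**Figure D3:**
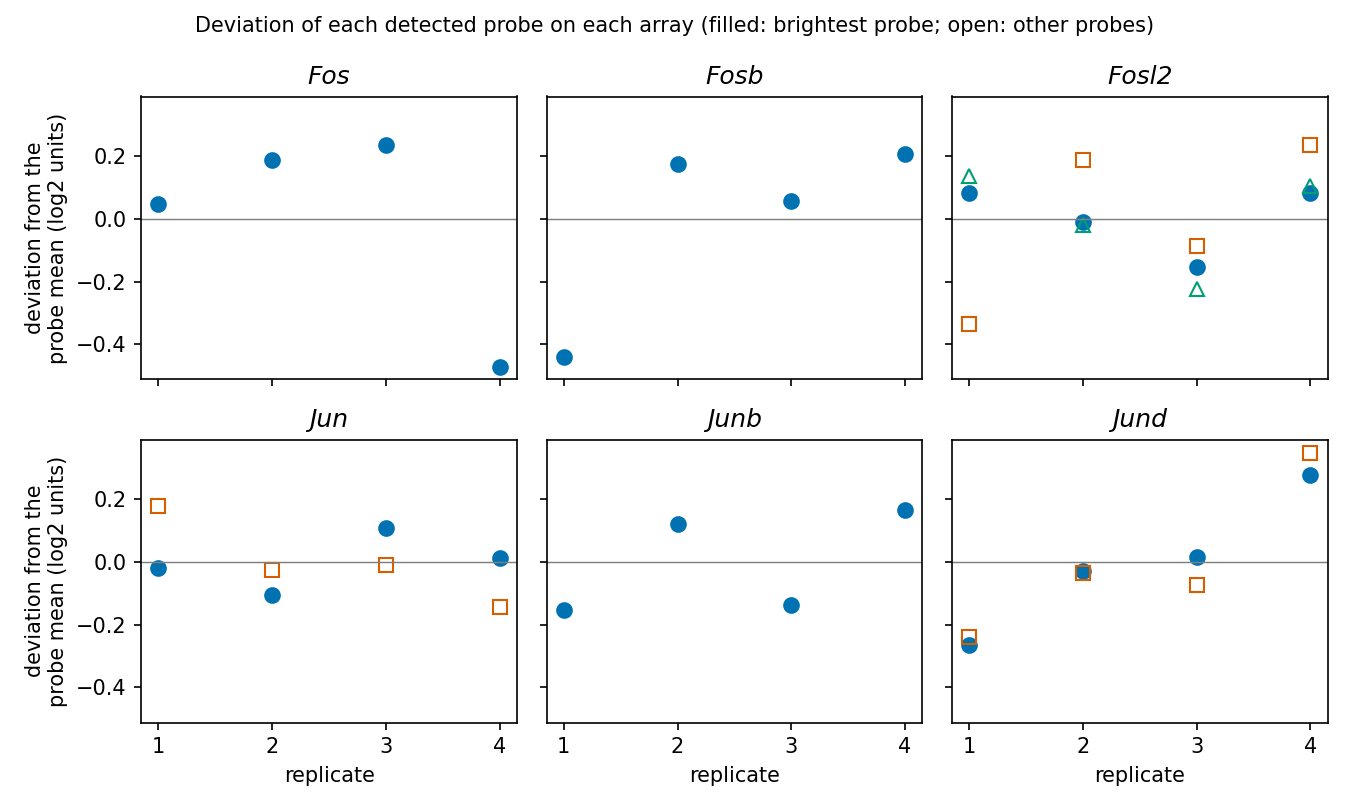
Deviation of each detected probe from its own mean over 4 arrays, in log2 units, for the 6 detected genes, with filled symbols for the brightest probe of a gene and open symbols for its other probes. The 2 Jund probes move together from -0.27 and -0.24 on replicate 1 to 0.28 and 0.35 on replicate 4, whereas the Jun probes differ in order.

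The arrays with the lowest and highest level differed between members. Of the 6 detected genes, Fosb, Junb and Jund were lowest on replicate 1, Fos on replicate 4, Fosl2 on replicate 3 and Jun on replicate 2. Among the 62 genes of the lists described below that were detected on all arrays, 27 were also lowest on replicate 1. That count is for the main scaling and chosen lists, and the share over all tested genes is not given. Fosb, Junb and Jund were highest on replicate 4, Fos and Jun on replicate 3, and Fosl2 on replicates 1 and 4, both at 0.75. Fosb and Jund kept their lowest and highest arrays under each of the 5 other settings. The lowest array of Junb was replicate 3 under each of them. With normexp, Junb was highest on replicate 2, Jun was highest on replicate 1 and lowest on replicate 4, and Fos was lowest on replicate 1. The median of all tested genes deviated by -0.045, 0.069, 0.015 and -0.024 log2 units on replicates 1 to 4 with the main scaling. On replicate 1 it lay between -0.0091 and 0.019 under the 5 other settings.

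The spread of each gene was then tested against genes of like brightness with limma, among 14916 genes detected on at least 2 arrays. None of the 6 tested members passed, with an adjusted p of 0.987 for each, and 0 of 6 had an unadjusted p under 0.05. Of all tested genes 0.469% passed after adjustment and 5.06% without it. Jund came nearest, with an SD of 0.22 against a fitted 0.13 for its level (unadjusted p = 0.120, limma), larger than the SD of 92.4% of the genes in its bin when genes were split by level into 20 bins. Fos had an SD of 0.32 against a fitted 0.27, Fosb 0.30 against 0.31, Junb 0.17 against 0.15, Fosl2 0.11 against 0.17 and Jun 0.088 against 0.14. The median SD of the 6 was 0.195, against 0.161 over all tested genes, which were not matched for level. With 4 arrays, a p that misses the threshold does not show that a gene was steady.

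**Figure D4:**
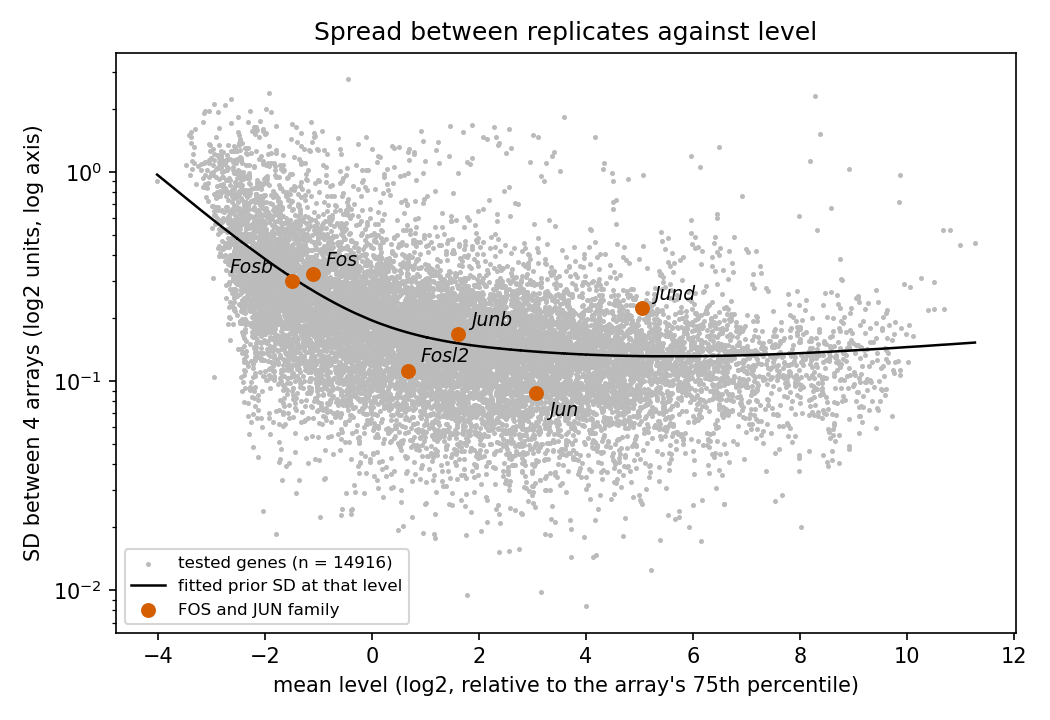
SD between the 4 arrays (log2 units, log axis) against mean level for the 14916 tested genes, with the fitted prior SD as a line and the 6 tested FOS and JUN genes as larger points. Jund lies furthest above the line among the 6, and Jun and Fosl2 lie below it.

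Genes that work with AP-1 were taken in lists by their role. The counts below stand beside the 47.9% of all named genes that were detected on every array. Of 12 measured genes for other leucine zipper partners, 9 were detected on every array, Atf7 and Maf on 3 and Batf on none. Atf3, a stress-induced partner of JUN, had a level of 2.76 ± 0.19, and Jdp2, a repressor that pairs with JUN, 4.32 ± 0.11 (SD, n = 4). Mafg, a small MAF protein, read 3.29, 4.32, 4.22 and 4.47 on replicates 1 to 4, lowest on replicate 1, with an adjusted p of 0.198 and an unadjusted p of 0.0022 (limma). The median SD of the 11 tested partners was 0.186.

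Measured kinase genes in or around MAP kinase signalling, which reaches JUN and the factors that switch on Fos, numbered 17. Of these, 13 were detected on all arrays, Map2k6 and Map3k1 on 3, Map3k5 on 2 and Map2k7 on 1. The JNK gene Mapk8 had a level of -1.56 ± 0.10 and the p38 gene Mapk14 4.81 ± 0.21 (SD, n = 4). Of 16 tested, 0 passed after adjustment and Map2k1 had an unadjusted p under 0.05 (limma).

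The phosphatases that switch MAP kinases off had a median SD of 0.56 log2 units over 7 tested genes. Over the 5 detected on all arrays it was 0.24, against 0.15 over all tested genes detected on all arrays, which were not matched for level. Dusp1, an early response gene like Fos, had levels of -1.40, -0.38, -0.57 and -0.10 on replicates 1 to 4. Dusp2 had levels of 0.68, 1.47, 1.35 and 2.60. Dusp10, detected on 3 arrays, had -3.19, -1.70, -2.34 and -1.14, the first of which is only a bound. Dusp1 and Dusp2 were lowest on replicate 1 and highest on replicate 4 under each scaling tried. Dusp10 was highest on replicate 4, and its lowest array is not settled. Dusp7, detected on 3 arrays, ran the other way, with -1.56, -2.21, -2.22 and -3.17 on replicates 1 to 4, the last only a bound. Dusp1, Dusp2 and Dusp10 had unadjusted p-values of 0.028, 0.00046 and 0.042, and none passed after adjustment over all genes (adjusted p = 0.762, 0.0746 and 0.937, limma). Dusp6 had a level of 3.67 ± 0.24 (SD, n = 4), and Dusp4 was not detected on any array.

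Of 8 measured factors that bind the promoters of FOS and JUN genes, 7 were detected on every array, but not Mef2a. The serum response factor gene Srf had a level of 3.57 ± 0.11, its partner gene Elk1 0.57 ± 0.23 and Creb1, which binds the cAMP response element, 0.69 ± 0.28 (SD, n = 4). Of 11 measured genes of mRNA and protein turnover, 9 were detected on all arrays. Fbxw7, a ubiquitin ligase subunit that targets JUN, had a level of 1.36 ± 0.057 and Elavl1, which stabilises mRNAs with AU-rich elements, 5.03 ± 0.14 (SD, n = 4). Zfp36, which destabilises such mRNAs, and the JUN ubiquitin ligase gene Itch were not detected on any array. No gene of these lists had an unadjusted p under 0.05 (limma).

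Of 14 other early genes, 8 were detected on all arrays, Nr4a2 on 2 and Egr3 and Klf2 on 1 each. The share on all arrays was 57.1%, against 47.9% of all named genes. Ier2 had a level of 3.84 ± 0.17 and Ier3 1.48 ± 0.043 (SD, n = 4). The zinc finger gene Egr1, often induced together with Fos, was not detected on any array, and neither were Nr4a3 and Btg2. Egr2 was the 1 early gene with an unadjusted p under 0.05, reading -0.89, -1.11, -0.80 and 0.17 on replicates 1 to 4, with an adjusted p of 0.762 (limma).

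Of 21 genes known as AP-1 targets, 11 were detected on all arrays, Mmp3 and Plau on 1 each and 8 on none. This share of 52.4% lay near the 47.9% of all named genes. The matrix protease gene Mmp9 had a level of 0.89 ± 0.091, the urokinase receptor gene Plaur 1.85 ± 0.27 and the cyclin gene Ccnd1 3.71 ± 0.076 (SD, n = 4). Mmp12 and Hmox1 had an unadjusted p under 0.05 (adjusted p = 0.565 and 0.216, limma) and ran in opposite order. Mmp12 was highest on replicate 1 and lowest on replicate 4, and Hmox1 the reverse.

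**Figure D5:**
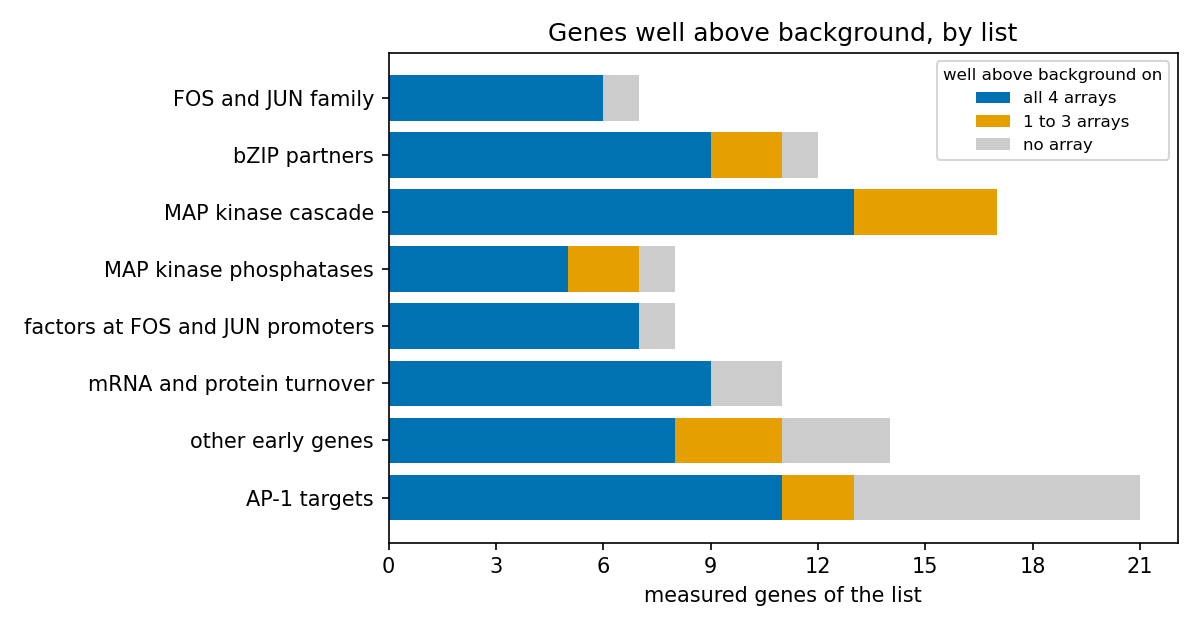
Number of measured genes in each list with signal well above background on every array, on 1 to 3 arrays or on no array. Of the FOS and JUN family 6 of 7 were detected on all arrays, and of the AP-1 targets 11 of 21.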

How the data were processed

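RNA of 4 biological replicates of carbon black-exposed NR8383 cells was measured on 1-colour Agilent arrays, and groups and replicate numbers came from the labels. The deposited files hold intensity on a linear scale. The submitters' processing notes name Agilent Feature Extraction 11.0.1.1. Per the file headers, the software removed local trends and background from the processed intensity array by array; no scaling between arrays was seen in the values. The files also give 0 or 1 marks, per the file headers. No spot was saturated.

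From these, the mean log2 processed intensity of each probe was taken over its spots, leaving out control and non-uniform ones, and the 75th percentile of the array over probes was subtracted. A probe was well above background if at least 50% of its spots were marked. For a gene with several probes the brightest was used, and a gene counted as detected on the arrays of its most often detected probe. Unversioned accessions were matched to RefSeq genes of GRCr8, which named 46.3% of the probes. The arrays correlated at 0.981 to 0.993 over tested genes.

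An intercept was fitted with limma 3.58.1 (R 4.3.3), and each gene's variance was set against a prior with a trend on level in a one-sided F test, Benjamini-Hochberg adjusted, with a threshold of 0.05. The test was tested on simulated data. Intensities give no counts, so the number of arrays limits the precision. The genes and lists were chosen with earlier results of these data known. The text names all 7 members, the first 3 genes of each list, genes past the threshold and those behind counts of 5 or fewer, except 1 list gene that is not reported here. A normexp alternative used the median spot signal in place of the mean and added an offset of 50 units. Map2k1, Mafg, Egr2, Mmp12 and Hmox1 fall under the counts at an unadjusted p. A search for genes of like pattern was not made, since 4 arrays are too few for a correlation.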

Additional observations from a re-analysis of the deposited data

Results flagged for a closer look

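Among 26 FOS and JUN probes and named list genes detected on all arrays, 1 had an array far from the others, and chance sets about 5% of such groups apart. For the early gene Ier3 replicate 2 was high, with levels of 1.45, 1.54, 1.46 and 1.45 on replicates 1 to 4, and the gap took a share of 0.880 of the range. Ier3 had an SD of 0.043, below the median of 0.161 over all tested genes. None of the 10 probes of the detected members was set apart in this way.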

How the results depend on the processing

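No paired analysis was possible because all arrays belong to 1 group. The count of detected members stayed at 6 of 7 with the milder detection mark, with the brightest probe alone and without each replicate in turn (6 to 6), and was 5 with every spot of a probe marked. None of the members passed the spread test under any of 14 alternatives, with adjusted p-values between 0.763 and 0.995 (limma), leaving out single replicates included (0 to 0). The count over all tested genes did move. It was 70, against 0 with the 75th percentile over detected probes, 1 with that over all spots, 1 with quantile normalization, 1 with cyclic loess, 236 with normexp, 207 when the prior was robust, 0 when it had no trend, 356 without the filter on dim probes and 27 to 161 without single replicates (27 without replicate 2, 161 without replicate 3 and 43 without replicate 4). The cause was not tested. Members' levels shifted with the reference percentile by construction, that of Fos to -4.61 over detected probes. The SD of Fos was 0.093 with normexp, whose offset of 50 units narrows log2 differences of dim signals. Chosen after seeing the data, its spots alone gave levels of -1.38 ± 0.48 and -0.81 ± 0.31 (SD, n = 4). Signals near background, as for Fos and Fosb, limit what their levels show.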
